A study of Mus musculus with 6 samples.

Results

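The subject is a set of 9 genes that regulate or mark long-term haematopoietic stem cells: Hlf, Mecom, Meis1, Prdm16, Gfi1b, Mllt3, Ctnnal1, Fgd5 and Pdzk1ip1. They were chosen by gene symbol, outside the HOX clusters, and all 9 were found among the 29872 genes of the deposited table. The study sequenced bulk RNA from 6 libraries of C57BL/6 mice. The 3 CML libraries stand for chronic myeloid leukaemia and the 3 WT libraries for wild type. Cells of both groups came from bone marrow, had no treatment and were expanded ex vivo. Their gate took cells without lineage markers that carry Sca1, cKit and CD150. The labels give neither age, nor the oncogene that caused the leukaemia and its promoter, nor whether libraries of 1 group are separate mice or cultures, so p-values rest on the spread among these 6 libraries, which could be technical.

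Long-term stem cells keep blood formation going for life, mostly at rest, and a small network of transcription factors holds them in that state. Hlf, Mecom, Meis1, Prdm16 and Gfi1b encode DNA-binding factors of the network, and Mllt3 encodes a chromatin cofactor that helps to keep its target genes transcribed. Ctnnal1, Fgd5 and Pdzk1ip1 are best known here as marker genes, since reporters placed in their loci label stem cells. In CML the leukaemic stem cell sits at the top of the disease, and drugs against the BCR-ABL kinase spare it, so how far it keeps the normal programme is a standing question.

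Of the 9 genes, 2 were lower in CML (Hlf and Mllt3), 2 were higher (Gfi1b and Pdzk1ip1) and 5 did not pass the test (edgeR's quasi-likelihood test, adjusted p under 0.05 over all 16221 tested genes). Over all tested genes 17.4% passed, 10.2% higher and 7.20% lower in CML, beside 22.2% of the 9 in each direction. With library totals in place of composition-adjusted (TMM) scaling, the higher share of all calls moved from 58.6% to 73.8%. The median log2 fold change was -0.29 over the 9 genes and -0.004 over all tested genes, and 6 of the 9 were below 0. Groups did not overlap for 4 of the 9, with CML below WT for Hlf and Fgd5 and above it for Gfi1b and Pdzk1ip1. Of all tested genes, 35.0% had groups that did not overlap. These counts are small and moved when 1 library was left out. The number lower ran from 0 (without WT replicate 2) to 3 (without WT replicate 3). It was 1 without CML replicate 2 or 3 or WT replicate 1. The number higher was 1 without CML replicate 1 or WT replicate 3, and 0 without any of the other 4 libraries.

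**Figure D1:**
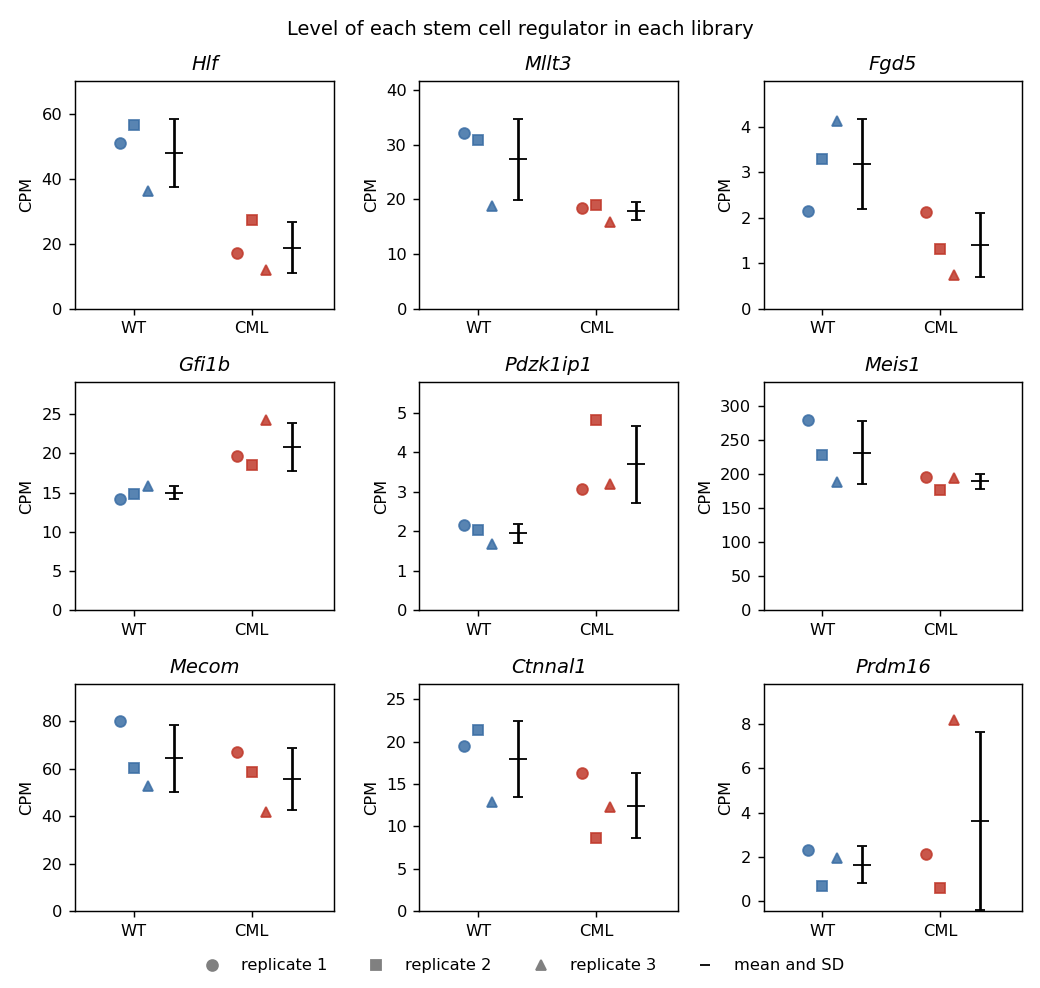
Level of each of the 9 genes in CPM (counts per 1000000 counts, TMM-scaled; linear axes, which run from 0 or, for Prdm16, from just below it) in the 3 WT and 3 CML libraries, with the group mean and SD beside the points. Hlf and Fgd5 lie lower in each CML library than in any WT library, Gfi1b and Pdzk1ip1 lie higher, and the groups overlap for the other 5.

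The libraries held between 13323469 and 17926847 counts. Spearman coefficients across genes were 0.983 to 0.992 within a group and 0.951 to 0.970 between groups, and no pair was as alike as repeat counting of 1 library would be (smallest chi-square per gene 7.92). WT replicate 3 was, of the WT libraries, the nearest to each CML library (0.970, 0.958 and 0.963 to CML replicates 1, 2 and 3). It was also the lowest WT library for 6 of the 9 genes (Hlf, Mecom, Meis1, Mllt3, Ctnnal1 and Pdzk1ip1). The gate genes Kit, Ly6a (Sca1) and Slamf1 (CD150) were present in every library, at 309 ± 100, 106 ± 57.5 and 14.2 ± 4.35 CPM in CML and 292 ± 9.05, 52.2 ± 12.1 and 24.7 ± 6.61 CPM in WT (SD, n = 3). Of the 3, Slamf1 passed (log2 fold change -0.80, adjusted p = 0.0470), but not without CML replicate 1 (0.0946) or 3 (0.152) or WT replicate 1 (0.134) or 2 (0.158), nor when scaled by library totals (0.0563) or filtered at a mean of 50 counts (0.0520).

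The 4 genes that passed are shown here with the 250 bases upstream of their RefSeq start (GRCm38.p6), so that the pairs that fell and rose can be set side by side. The stretch of Hlf lies at chr11:90390918-90391167 (minus strand), Mllt3 at chr4:88033408-88033657 (minus), Gfi1b at chr2:28621983-28622232 (minus) and Pdzk1ip1 at chr4:115088458-115088707 (plus). Each is written 5′ to 3′ on the strand of its gene, and capitals mark matches to the motifs named below.
Hlf: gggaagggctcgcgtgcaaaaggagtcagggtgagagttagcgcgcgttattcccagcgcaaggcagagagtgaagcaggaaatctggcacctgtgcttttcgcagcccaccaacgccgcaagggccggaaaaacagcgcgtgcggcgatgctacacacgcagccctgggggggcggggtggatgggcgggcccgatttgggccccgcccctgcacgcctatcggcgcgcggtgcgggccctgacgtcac
Mllt3: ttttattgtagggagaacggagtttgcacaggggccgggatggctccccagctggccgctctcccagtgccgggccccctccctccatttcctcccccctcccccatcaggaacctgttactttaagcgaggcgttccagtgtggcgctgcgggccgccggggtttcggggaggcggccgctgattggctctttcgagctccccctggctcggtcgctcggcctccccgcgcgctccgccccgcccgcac
Gfi1b: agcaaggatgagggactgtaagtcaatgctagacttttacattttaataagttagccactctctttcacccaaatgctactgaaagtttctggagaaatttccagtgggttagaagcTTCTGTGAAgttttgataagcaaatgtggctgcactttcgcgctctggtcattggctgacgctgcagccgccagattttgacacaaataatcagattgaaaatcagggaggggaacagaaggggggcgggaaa
Pdzk1ip1: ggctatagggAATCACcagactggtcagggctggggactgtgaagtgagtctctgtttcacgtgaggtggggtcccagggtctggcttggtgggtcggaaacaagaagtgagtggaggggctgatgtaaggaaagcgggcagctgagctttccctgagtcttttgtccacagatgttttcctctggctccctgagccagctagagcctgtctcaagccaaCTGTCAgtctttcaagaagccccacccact

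The upstream sequences of Hlf and Mllt3, which fell, were rich in CpG dinucleotides, with 26 and 23 in 250 bases and a GC content of 67.2% and 69.2%. Those of Gfi1b and Pdzk1ip1, which rose, held 5 and 3, at 44.4% and 55.6% GC. The median over 32851 RefSeq regions of the same length was 6 CpG and 52.4% GC. A further RefSeq start of Mllt3, inside the gene, had 4. The genes that did not pass had 8 to 31, and these did not follow the sign of the fold change. Prdm16, with a fold change above 0, had 22 CpG at 62.4% GC. Of those with fold changes below 0, Fgd5 had 31, Ctnnal1 18, Meis1 13 and Mecom 14 and 8 at its 2 starts. CpG content was not compared with the calls over all genes.

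Motifs of factors in the network were searched on both strands of these sequences. They were TTACGTAA and TTACATAA for the HLF class, TGACAG for MEIS, AATCAC for GFI1 and GFI1B, GACAAGATA for EVI1, AGATAA for GATA (which shares its first letters with the end of the EVI1 motif), TTCNNNGAA for STAT and CCGGAAG for ETS factors. Gfi1b held the STAT letters once, 133 bases before the start, as did 7.0% of all regions. Pdzk1ip1 held the GFI1 letters 240 bases and the MEIS letters 30 bases before the start, which 9.1% and 15.9% of all regions hold. The sequences of Hlf and Mllt3 printed here held none of the 8 motifs, which says only that those letters are not in these windows. The further start of Mllt3 held the MEIS letters 50 bases upstream. Among the genes that did not pass, the MEIS letters lay 86 bases before 1 start of Mecom and 226 before that of Fgd5. Meis1 held the ETS letters 12 bases before its start. The matches thus did not divide the genes by the sign of the fold change. A match is a string of letters and not a shown binding site.

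Hlf encodes a leucine zipper factor of the PAR family, among the most specific transcription factors of long-term stem cells (chromosome 11, 90336536 to 90390895, minus strand, GRCm38). Its level was 17.3, 27.3 and 11.9 CPM in CML replicates 1, 2 and 3 and 51.0, 56.7 and 36.4 CPM in WT replicates 1, 2 and 3. The highest CML library lay below the lowest WT library, and CML replicate 3 was the lowest of all. Hlf thus averaged 18.8 ± 7.81 CPM in CML against 48.0 ± 10.4 in WT, 2.55-fold higher in WT, and its log2 fold change was -1.36 (SE 0.31, adjusted p = 0.0229, edgeR). It missed the threshold without WT replicate 1 (adjusted p = 0.141) or 2 (0.0764) or CML replicate 1 (0.0678), and when genes of low count were kept (0.102). The fold change stayed between -1.72 and -1.11 in the 6 fits that left out a library.

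Fewer cells of a type and less RNA per cell cannot be told apart in bulk samples, for Hlf or for any gene that follows. Hlf has 2 PAR relatives, Tef and Dbp, and a repressor, Nfil3, that binds the same sites. Of these 3, Nfil3 rose and none fell. Nfil3 stood at 21.2, 27.1 and 26.0 CPM in the CML libraries and at 6.99, 7.32 and 8.10 CPM in the WT libraries, each CML value above each WT value. Its log2 fold change was 1.73 (SE 0.16, adjusted p = 1.43e-05), and it passed in every alternative fit. Tef was at 37.5 ± 6.68 CPM in CML against 31.5 ± 3.12 in WT (log2 fold change 0.25, adjusted p = 0.274), and Dbp at 3.10 ± 0.72 and 2.03 ± 0.38 CPM (0.61, adjusted p = 0.165).

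Meis1 encodes a TALE homeobox factor that binds DNA with HOX and PBX proteins (chromosome 11, 18879817 to 19018985, minus strand). It was at 196, 177 and 194 CPM in CML replicates 1, 2 and 3 and at 279, 228 and 187 CPM in the WT libraries. WT replicate 3 lay inside the CML range and the other WT libraries above it. The log2 fold change of -0.29 (SE 0.14) did not pass (adjusted p = 0.174). Without WT replicate 3 it was -0.43 and passed (adjusted p = 0.0185). Meis1 was the one member with counts that were not whole in all 6 libraries. It shares 1029 exonic bases with Gm37818 on the same strand (6.88 ± 0.92 CPM in CML, 8.82 ± 2.58 in WT) and 896 with Gm16140 on the other (2.28 ± 0.47 and 2.30 ± 0.69 CPM). How reads shared with these genes were divided is not given. The levels of Meis1 and of both overlapping genes may depend on it, which was not tested.

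Of 8 TALE partners and relatives of Meis1, 5 had enough counts to be tested and 0 passed with edgeR or DESeq2 (1 at an unadjusted p under 0.05, Pbx3), while 1 of 8 rose with no low-count filter (Meis2) and 2 of 6 without CML replicate 1 (Meis2 among them). Pbx3, a partner of Meis1, was at 18.5 ± 5.76 CPM in CML against 27.5 ± 7.33 in WT (SE 0.24 on a log2 fold change of -0.58, adjusted p = 0.131). It passed without CML replicate 2 (adjusted p = 0.0119). Without any of the other 5 libraries it did not pass.

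Mecom encodes EVI1 and its longer form with a PR domain, zinc finger factors needed for stem cell self-renewal (chromosome 3, 29951296 to 30548008, minus strand). The deposited counts are per gene and do not tell the forms apart. Mecom was at 67.1, 58.8 and 41.6 CPM in CML replicates 1, 2 and 3 and at 79.9, 60.3 and 52.9 CPM in the WT libraries. The groups overlapped, and the lowest library of each was replicate 3. The log2 fold change was -0.21 (SE 0.20, adjusted p = 0.519), with a range of -0.36 to -0.03 when 1 library was left out. It overlaps an antisense gene, Mecomos, over 81 exonic bases, and Mecomos was at 6.44 ± 1.75 CPM in CML against 5.50 ± 1.55 in WT.

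Prdm16 is the close relative of Mecom and also encodes a PR domain and zinc finger factor that maintains stem cells (chromosome 4, 154316125 to 154636873, minus strand). It had 34, 8 and 131 counts in CML replicates 1, 2 and 3, and 39, 11 and 31 counts in the WT libraries. CML replicate 3 stood apart from all the others. Its 131 counts have an exact 95% Poisson interval of 109.5 to 155.4, against 3.45 to 15.8 for the 8 counts of CML replicate 2 (counting error only, since reads are not independent molecules). In CPM the CML libraries held 2.13, 0.58 and 8.20 and the WT libraries 2.33, 0.69 and 1.93, so the highest CML library was 14.1-fold above the lowest. The log2 fold change of 1.15 (SE 0.96, adjusted p = 0.484) turned to -0.26 without CML replicate 3 (adjusted p = 0.838). An antisense gene that shares 109 exonic bases with Prdm16, B230104I21Rik, was at 0.045 CPM in CML against 0.02 in WT.

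Of 14 further genes of the PRDM family and its CtBP corepressors in the table, 10 were tested. Prdm1, which encodes BLIMP1, a repressor best known from plasma cells and macrophages, rose from 0.64 ± 0.26 CPM in WT to 3.18 ± 0.85 CPM in CML (log2 fold change 2.29, SE 0.38, adjusted p = 0.00127). Its groups did not overlap, and the call held without any 1 library.

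Gfi1b encodes a zinc finger repressor that restrains stem cell expansion and is needed for megakaryocytes and red cells (chromosome 2, 28609450 to 28621982, minus strand). It was at 19.6, 18.5 and 24.2 CPM in CML replicates 1, 2 and 3 and at 14.2, 14.8 and 15.9 CPM in the WT libraries. The WT libraries lay close together, and each CML library lay above them. Gfi1b averaged 20.8 ± 3.02 CPM in CML against 14.98 ± 0.84 in WT, 1.39-fold higher in CML (log2 fold change 0.47, SE 0.15, adjusted p = 0.0464). The call was near the threshold. It missed without CML replicate 1 (0.0517), 2 (0.0536) or 3 (0.222) or WT replicate 1 (0.137) or 2 (0.165), with no low-count filter (0.0713) and with limma-voom (0.0548).

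Gfi1b acts with the demethylase LSD1 (Kdm1a) and the CoREST complex. Of 11 genes for this complex and the paralogue Gfi1, all tested, 0 rose and 2 fell. Hdac2, a deacetylase of the complex, fell from 306 ± 41.7 to 218 ± 14.4 CPM (log2 fold change -0.49, SE 0.13, adjusted p = 0.0178), and Rcor2 fell from 10.3 ± 1.72 to 6.42 ± 0.91 CPM (-0.68, SE 0.20, adjusted p = 0.0306). Neither passed without CML replicate 2 or 3 or WT replicate 2. Hdac2 also missed without WT replicate 1 (0.0545), and Rcor2 without WT replicate 3 (0.0669) or when scaled by library totals (0.0698). Kdm1a was at 93.7 ± 2.75 CPM in CML against 89.5 ± 3.65 in WT (log2 fold change 0.07, SE 0.11), and Gfi1 at 15.8 ± 2.34 and 17.3 ± 5.19 CPM (-0.13, SE 0.21), both named after their values were seen.

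Mllt3 encodes AF9, a reader of acylated histones that joins the super elongation complex and the methyltransferase DOT1L, and its level is known to limit how well human stem cells are kept in culture (chromosome 4, 87769925 to 88033364, minus strand). It was at 18.5, 19.0 and 16.0 CPM in CML replicates 1, 2 and 3 and at 32.3, 30.9 and 18.9 CPM in the WT libraries. The CML libraries lay close together, and WT replicate 3 fell within their range while the other WT libraries lay well above it. Mllt3 averaged 17.8 ± 1.63 CPM in CML against 27.4 ± 7.38 in WT, 1.54-fold higher in WT (SE 0.19 on a log2 fold change of -0.62, adjusted p = 0.0433). The fall was -0.83 without WT replicate 3 (adjusted p = 0.00210). It missed the threshold without any of the other 5 libraries (0.0611, 0.0711 and 0.149 without CML replicates 1, 2 and 3, and 0.145 and 0.170 without WT replicates 1 and 2). It also missed it when scaled by library totals (0.0697) and with limma-voom (0.0755).

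Among 18 genes of the elongation and DOT1L complexes, 16 were tested, 3 rose and 0 fell. Aff3, a scaffold gene of the complex, was at 20.5 ± 0.89 CPM in CML against 7.19 ± 0.98 in WT (SE 0.16 on a log2 fold change of 1.51, adjusted p = 4.51e-05). Ell2, an elongation factor gene, was at 144 ± 8.78 and 77.7 ± 5.05 CPM (0.89, SE 0.11, adjusted p = 1.62e-04). Both passed in every alternative fit, while Mllt3 itself fell. Cbx8, whose Polycomb protein binds AF9, rose by 0.70 on the log2 scale (SE 0.22, adjusted p = 0.0447). It missed without CML replicate 1 (0.107), 2 (0.0896) or 3 (0.0850) and without WT replicate 1 (0.160) or 2 (0.142), with DESeq2 (0.0634) and with no low-count filter (0.0692). Mllt1, the paralogue of Mllt3, was at 13.6 ± 0.74 and 11.8 ± 2.65 CPM (log2 fold change 0.20, SE 0.18), and Dot1l at 8.78 ± 0.83 and 8.37 ± 2.07 CPM (0.07, SE 0.21); these 2 genes were named after their values were seen.

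The 3 marker genes differed among themselves. Ctnnal1 encodes alpha-catulin, a relative of the alpha-catenins (chromosome 4, 56810935 to 56865188, minus strand). It was at 16.3, 8.68 and 12.3 CPM in CML replicates 1, 2 and 3 and at 19.5, 21.4 and 12.9 CPM in the WT libraries. The groups overlapped through CML replicate 1 and WT replicate 3. The log2 fold change was -0.52 (SE 0.25, adjusted p = 0.176), and it was -0.77 and passed without CML replicate 1 (adjusted p = 0.0376). Its relative Ctnna1, which links cadherins to actin, rose from 38.9 ± 5.41 to 66.9 ± 12.9 CPM (log2 fold change 0.78, SE 0.15, adjusted p = 0.00409) and passed in every alternative fit. It was 1 of 2 tested genes among 5 catenin and PDZ relatives, and 0 fell.

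Fgd5 encodes an exchange factor for the small GTPase CDC42 and marks stem cells and endothelium (chromosome 6, 91978878 to 92076004, plus strand). It was scarce, with 34, 18 and 12 counts in CML replicates 1, 2 and 3 and 36, 52 and 66 counts in the WT libraries. In CPM these were 2.13, 1.31 and 0.75 in CML and 2.15, 3.28 and 4.11 in WT. The groups did not overlap, but CML replicate 1 and WT replicate 1 were nearly equal, with Poisson intervals of 1.48 to 2.98 and 1.51 to 2.98 CPM. The log2 fold change of -1.18 (SE 0.38) just missed the threshold (adjusted p = 0.0501). It passed without CML replicate 1 (-1.64, adjusted p = 0.0121) or WT replicate 1 (-1.40, adjusted p = 0.0322), with DESeq2 (0.0443), with no low-count filter (0.0184) and with the RLE scaling (0.0494). In the other alternative fits the adjusted p ran up to 0.176.

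Of 6 genes for the FGD family and CDC42, 5 were tested, 1 rose and 0 fell. Fgd2, a family member of antigen-presenting cells, was at 12.1 ± 2.27 CPM in CML against 4.62 ± 0.66 in WT (SE 0.20 on a log2 fold change of 1.39, adjusted p = 5.33e-04) and passed in every alternative fit. Endothelial cells also express Fgd5. Their genes were not all near 0: Cdh5, Cldn5 and Sox17 had 6, 3 and 2 counts over the 3 CML libraries and 1, 3 and 0 over the WT libraries, but Emcn, the endomucin gene, had 50 and 143. Emcn was about as abundant as Fgd5, at 0.82, 2.04 and 0.56 CPM in CML replicates 1, 2 and 3 and at 3.76, 1.45 and 3.55 CPM in the WT libraries. Its groups overlapped and it did not pass (log2 fold change -1.38, SE 0.50, adjusted p = 0.0820), though it did with DESeq2 (0.0438), without CML replicate 2 (0.00880) and without WT replicate 2 (0.0380). Of 10 endothelial genes, 4 were tested, 1 rose and 1 fell, with summed levels of 142 to 181 CPM in CML and 72.3 to 115 CPM in WT. Pecam1, which blood cells also express, made up most of that sum (116 CPM in CML against 86.3 in WT). Flt1, a VEGF receptor gene, rose by 6.66 on the log2 scale, to 42.6 ± 5.05 CPM (adjusted p = 4.42e-09), and Kdr, another VEGF receptor gene, fell by 1.77 on that scale, from 6.63 ± 0.88 CPM (adjusted p = 0.00179). The part of endothelial cells in the values of Fgd5 was not tested.

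Pdzk1ip1 encodes MAP17, a small membrane protein (chromosome 4, 115088708 to 115093899, plus strand). It had 49, 66 and 51 counts in CML replicates 1, 2 and 3 and 36, 32 and 27 counts in the WT libraries, or 3.08, 4.81 and 3.19 CPM against 2.15, 2.02 and 1.68 CPM. Each CML library lay above each WT library, with CML replicate 2 the highest. It averaged 3.69 ± 0.97 CPM in CML against 1.95 ± 0.24 in WT, 1.89-fold higher in CML (log2 fold change 0.91, SE 0.28, adjusted p = 0.0404). It missed without CML replicate 2 (0.187) or 3 (0.0667), without WT replicate 1 (0.0774), 2 (0.125) or 3 (0.0807), with DESeq2 (0.0620) and with limma-voom (0.0543). Its value was 0.68 without CML replicate 2. The direction of each of the 4 called genes was the same in every fit in which it was tested.

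**Figure D2:**
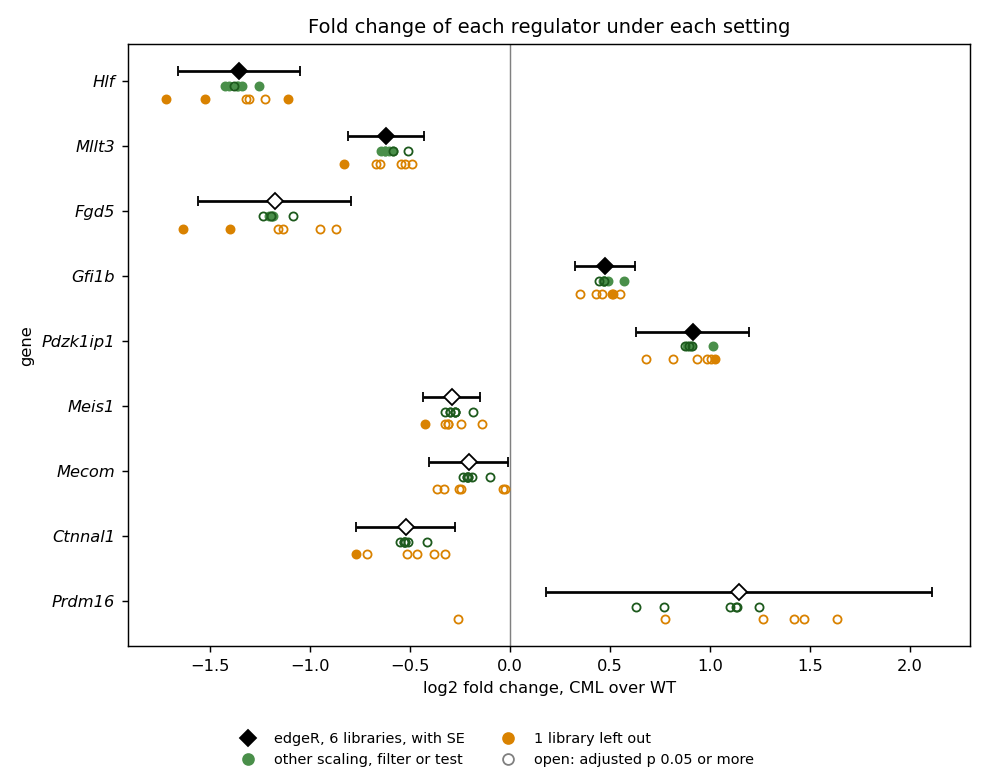
Log2 fold change (CML over WT) of each gene from edgeR on the 6 libraries, with its SE (diamond), under other scalings, filters and tests (green) and with 1 library left out (orange); filled symbols passed an adjusted p of 0.05. Only Prdm16 crosses 0, at -0.26 without CML replicate 3.

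The 9 genes did not vary as a block. Relative to the WT mean, Hlf stood at -1.48, -0.82 and -2.01 on the log2 scale in CML replicates 1, 2 and 3, and Fgd5 at -0.58, -1.28 and -2.08. For Prdm16, CML replicates 2 and 3 lay on opposite sides of the WT mean, at -1.50 and 2.31. The median of the 9 was -0.14, -0.52 and -0.54 in the CML libraries and 0.14, 0.05 and -0.28 in WT replicates 1, 2 and 3, so by this measure WT replicate 3 lay below CML replicate 1. As a description over the 6 libraries, which share the difference between groups, log2 CPM of Hlf ran against that of Gfi1b (Pearson r = -0.98) and with that of Mllt3 (0.87), while Meis1 ran with Mllt3 (0.87) and Ctnnal1 (0.80). Prdm16 had coefficients between -0.64 and 0.58 with the other 8.

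**Figure D3:**
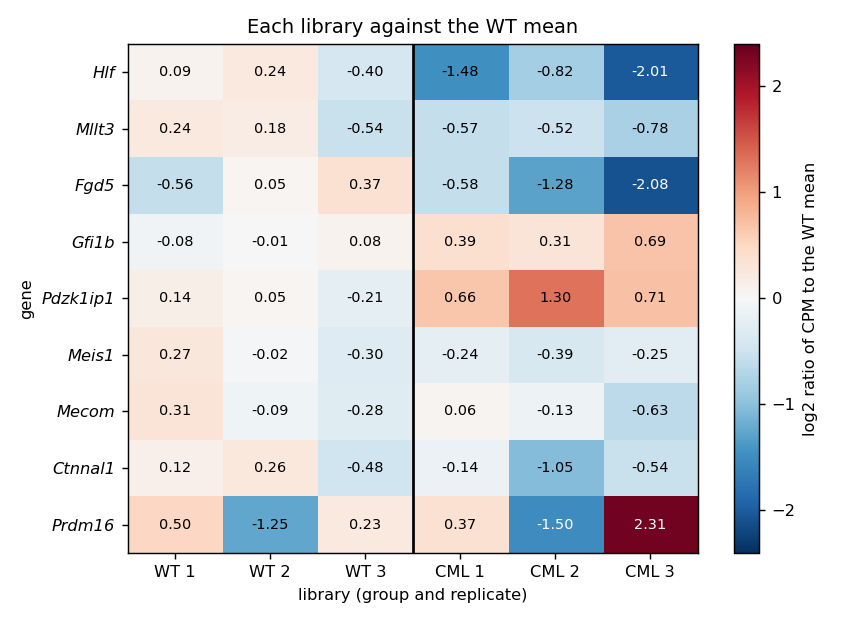
Log2 ratio of each library's CPM to the WT mean for the 9 genes (blue below, red above; WT libraries left of the line, CML libraries right of it). The rows of Hlf, Mllt3, Fgd5, Meis1 and Ctnnal1 are below 0 in all 3 CML libraries, and those of Gfi1b and Pdzk1ip1 are above 0 in all 3. The row of Prdm16 runs from -1.50 to 2.31.

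The genes with the pattern most like Hlf were Prdx4, Stk17b and Uxs1, with Pearson r of 0.992, 0.989 and 0.988 over the 6 libraries. Those most like Pdzk1ip1 were Hif1a, Fdx1 and Rapgef2 (0.999, 0.997 and 0.993). The search covered 9678 genes with a mean of at least 5 CPM. As many as 62 genes exceeded 0.95 with Hlf and 122 with Pdzk1ip1, so these names describe the 6 libraries and nothing more. Prdx4 fell (log2 fold change -1.14, adjusted p = 9.70e-04) and Hif1a rose (0.44, adjusted p = 0.025).

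Levels were compared between genes per kilobase of exon (CPM divided by the length of all annotated exons merged, GENCODE M21). In WT the order was Meis1 (21.9 ± 4.34), Gfi1b (8.19 ± 0.46), Hlf (7.19 ± 1.56), Mecom (5.18 ± 1.12), Ctnnal1 (2.34 ± 0.58), Mllt3 (2.28 ± 0.61), Pdzk1ip1 (1.10 ± 0.14), Fgd5 (0.51 ± 0.16) and Prdm16 (0.18 ± 0.09). The libraries of Gfi1b and Hlf, of Hlf and Mecom, and of Ctnnal1 and Mllt3 overlapped, so those neighbours were not separated by their spread. In CML the order began Meis1 (17.9 ± 1.00), Gfi1b (11.4 ± 1.65), Mecom (4.49 ± 1.05) and Hlf (2.82 ± 1.17), and Pdzk1ip1 (2.08 ± 0.55) stood above Ctnnal1 (1.62 ± 0.50) and Mllt3 (1.48 ± 0.14). Prdm16 (0.39 ± 0.43) and Fgd5 (0.22 ± 0.11) were last. From Mecom to Mllt3, and for Prdm16 and Fgd5, neighbours overlapped. Lengths matter for Mecom: with its longest transcript in place of the merged exons it was at 11.3 in WT, which put it ahead of Hlf (8.51) and Gfi1b (8.22).

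**Figure D4:**
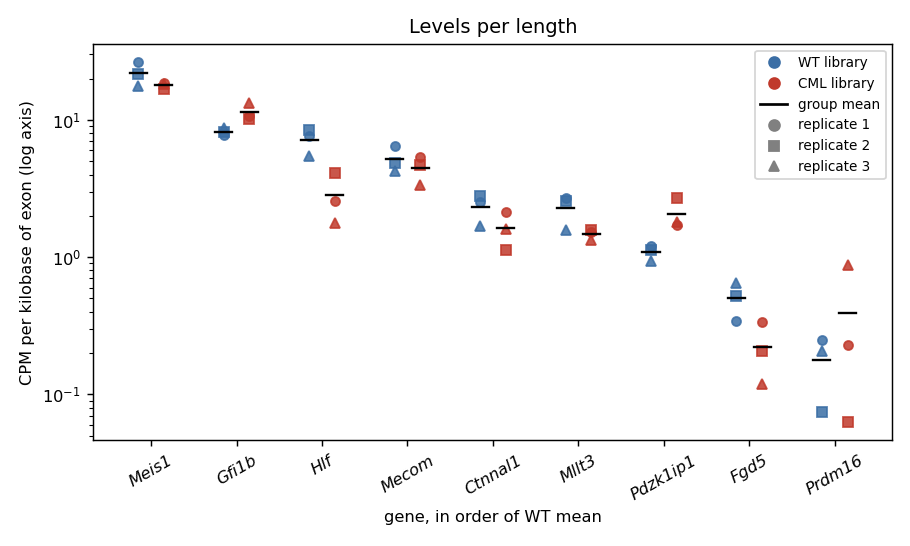
Level per kilobase of merged exon (log axis) of the 9 genes in each library, in the order of the WT means (bars). Meis1 is highest in both groups, at 21.9 in WT and 17.9 in CML, and Fgd5 and Prdm16 are lowest, at 0.51 and 0.18 in WT.

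Beyond the 9 genes, 59 other genes linked to long-term stem cells were followed, and 55 passed the low-count filter. In all, 5 rose, 12 fell and 38 did not pass, with a median log2 fold change of -0.09 beside -0.004 over all tested genes. Of all tested genes, 10.2% were higher and 7.20% lower in CML, which is the background for each list of genes given here. Mycn, a Myc paralogue of immature cells, was at 10.9, 13.2 and 14.6 CPM in the CML libraries and at 84.5, 102 and 129 CPM in the WT libraries (log2 fold change -3.03, SE 0.18, adjusted p = 2.95e-07). The groups were far apart, with each CML library far below each WT library.

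Angpt1, a ligand of the stem cell receptor Tie2, was at 149, 123 and 171 CPM in the CML libraries and at 556, 560 and 381 CPM in the WT libraries (log2 fold change -1.75, SE 0.17, adjusted p = 4.27e-05). Egr1, an early response factor linked to rest and retention, rose, with 22.0, 26.9 and 25.6 CPM against 9.38, 10.9 and 9.78 CPM (1.31, SE 0.15, adjusted p = 7.37e-05). Mycn, Angpt1 and Egr1 passed in every alternative fit.

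The other genes of the list given here were named after their values were seen. Those that rose, with their log2 fold changes, were Runx1 (0.61), Sult1a1 (2.75), Hes1 (2.19) and Ikzf2 (0.46), and those that fell were Lmo2 (-0.68), Esam (-1.22), Tek (-0.83), Trim47 (-1.56), Vldlr (-0.49), Bmi1 (-0.45), Erg (-0.39), Clec1a (-1.42) and Slamf1 (-0.80). The transcription factors and cofactors that passed thus split, with Egr1, Hes1, Runx1 and Ikzf2 higher and Mycn, Lmo2, Erg and Bmi1 lower. Fli1 (222 ± 11.6 and 224 ± 5.62 CPM in CML and WT) and Tal1 (140 ± 1.57 and 127 ± 9.02 CPM) were among those that did not pass. The number that fell was 5 without CML replicate 3 or WT replicate 2, 6 without WT replicate 1 and 8 when scaled by library totals. The number that rose was 9 without CML replicate 1. Mycn, Angpt1, Lmo2 and Esam were lower, and Egr1, Runx1, Sult1a1 and Hes1 higher, in every alternative fit in which they were tested and passed in each.

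**Figure D5:**
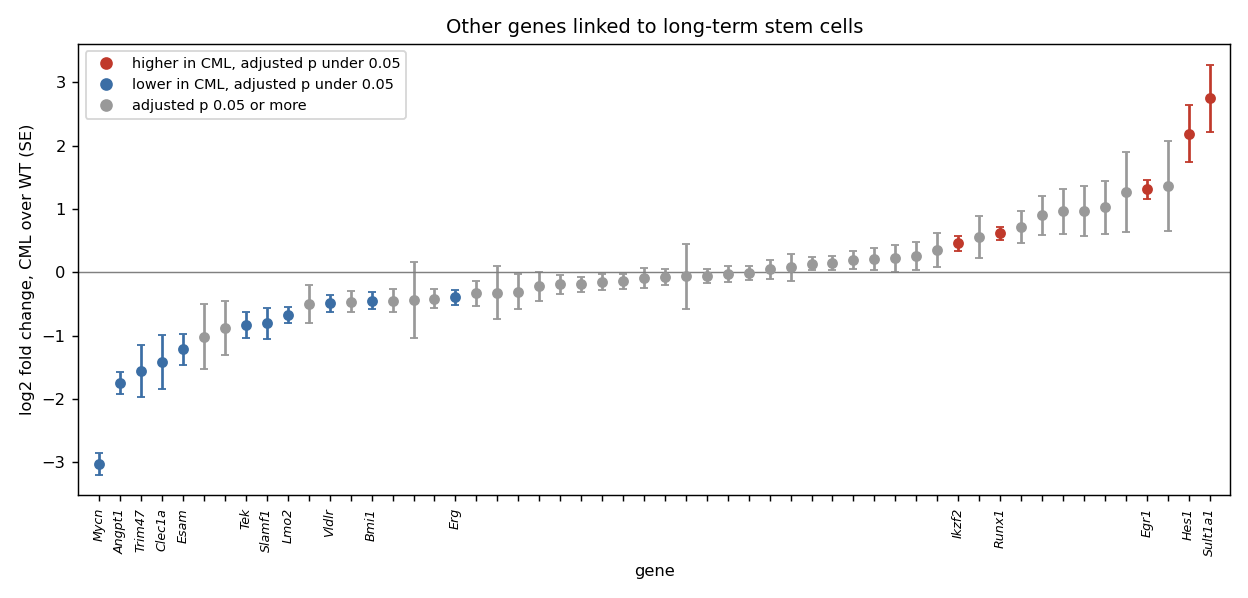
Log2 fold change (CML over WT) with its SE for 54 of the 55 tested genes linked to long-term stem cells other than the 9 members, in order of size, with names for those that passed. Blue genes (11) fell, red genes (5) rose and grey genes (38) did not pass; Mycn is the lowest at -3.03.

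Markers of other cell types moved with the groups as well. Of 12 mast cell genes, all tested, 7 rose and 0 fell, and their summed level was 2033 to 7108 CPM in CML and 123 to 275 CPM in WT. It was lowest in CML replicate 1 and highest in CML replicate 2. Most of the sum was Cpa3, the mast cell carboxypeptidase gene (2907 CPM in CML against 94.0 in WT), and Hdc, Tpsab1 and Tpsb2 rose by 5.88, 4.14 and 6.40 on the log2 scale. The number of mast cell genes that rose was 2 without WT replicate 1, 4 without WT replicate 2 and 11 without CML replicate 1. Mcpt1 and Mcpt2, mast cell protease genes of this list, were at 0 in all 3 WT libraries.

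Of 12 macrophage and monocyte genes, 8 were tested, 5 rose and 0 fell, with sums of 360 to 429 CPM in CML and 236 to 295 CPM in WT. Adgre1, Csf1r and Mrc1 rose by 5.48, 2.38 and 4.47 on the log2 scale, Lyz2 was the most abundant (230 and 228 CPM), and C1qa, C1qb and C1qc were at or near 0. Megakaryocyte genes, which matter for Gfi1b, summed to 128 to 208 CPM in CML and 284 to 310 CPM in WT. Of 12, 9 were tested, 0 rose and 2 fell, among them the integrin gene Itga2b, by 0.57 on the log2 scale (adjusted p = 0.0360, lost without CML replicate 1 or 2 or any WT library and, at 0.0813, when scaled by library totals). By library totals the platelet receptor gene Gp1ba rose (log2 fold change 1.09, adjusted p = 0.0391), as it did without CML replicate 1 (1.25, 0.0124). The number of megakaryocyte genes that fell was 3 with DESeq2 and with limma-voom, and 1 by library totals. Erythroid genes summed to 24.7 to 87.2 CPM in CML and 208 to 231 CPM in WT. Of 10, 6 were tested, 1 rose (Klf1, log2 fold change 3.48) and 2 fell (Hbb-bs and Hbb-bt, with log2 fold changes of -2.01 and -2.23). These counts moved with the setting. When genes of low count were kept, 4 of 10 rose (Klf1, Epor, Ermap and Hba-a1) and 0 fell (adjusted p = 0.0532 for Hbb-bs and 0.0718 for Hbb-bt), and without CML replicate 1, 5 of 8 rose, those 4 among them, and 2 fell. Without WT replicate 1 neither globin gene passed (adjusted p = 0.0793 and 0.132), and Hbb-bt also missed without CML replicate 3 (0.0977) or without either WT replicate 2 (0.111) or 3 (0.0637). Hba-a1 and Slc4a1 were at 0 in WT. The summed levels of both lineages that use Gfi1b were thus lower in each CML library than in any WT library, while Gfi1b was higher. The part of these cell types in the values of the 9 genes was not tested.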

How the data were processed

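The labels' protocols name RNeasy columns for the RNA and Nextera XT for the libraries. The authors deposited estimated counts per gene for 6 libraries, not scaled to a common total. Between 28.1% and 30.3% of a library's entries differed from a whole number by more than 0.01. The submitters' processing notes list STAR 2.7.3a, Partek 8.0 and mm10, without roles. Annotation, strand setting and division of shared reads were not given in the sources used here, so overlapping and antisense genes are uncertain.

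Counts were rounded, genes were filtered with filterByExpr (minimum count 10, 16221 of 29872 kept), scaled by TMM and tested with edgeR 4.0.16 in R 4.3.3 (quasi-likelihood F test, robust, group as the only term, two-sided, Benjamini-Hochberg over all tested genes, threshold 0.05). The SE was derived from the fold change and F. CPM is the count per 1000000 of the TMM-scaled library size. Means are given with the SD over n = 3 libraries. Limma-voom (limma 3.58.1) and DESeq2 1.42.0 were alternatives. Log2 CPM for correlations used a prior count of 2. Coordinates and lengths came from GENCODE M21 (GRCm38, the assembly of mm10), which matched 28951 symbols (96.9%). Upstream sequences came from RefSeq (GRCm38.p6), which matched all 9 members.

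The members and gene lists were chosen with earlier results of these data known. Named genes were the 9 members, 3 gate genes, up to 4 called genes with the lowest adjusted p from each list (up to 3, plus the most abundant, for cell types; otherwise the gene with the lowest p), and the 3 genes most like the lowest-p member in each direction. On data simulated from these libraries (CML against WT, 16221 genes) the pipeline recovered 20.9% of genes changed 1.5-fold, 76.1% of those changed 2-fold and 98.5% of those changed 4-fold, and 10.3% of 145 calls were false. Counts over a list cover all its tested genes, and results for some genes of these lists are not reported here.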

Additional observations from a re-analysis of the deposited data

How the results depend on the processing

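The number of genes called (2820) ran from 1466 to 4122 when 1 library was left out, with 1011 to 2021 higher in CML (1652 with all libraries) and 455 to 2101 lower (1168). Scaled by library totals, 732 were lower. Of the 9 stem cell regulators, 2 were called higher with all libraries, 1 with no low-count filter, 1 with a mean of at least 50 counts, 1 with DESeq2 and 0 with limma-voom; leaving out a library gave 0 to 1. The number called lower was 2, or 3 with RLE scaling, 3 with DESeq2, 1 by library totals and 1 with limma-voom, and leaving out a library gave 0 to 3. The filter at a mean of 50 counts removed 3 of the 9 (6 tested). The log2 fold change of Prdm16 ran from -0.26 (without CML replicate 3, a reversal) to 1.64 when 1 library was left out. The cause of these shifts was not tested, beyond the smaller number of samples or genes.

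Whether the replicate numbers in the titles pair the libraries is not known. Across all genes, the deviations of same-numbered CML and WT libraries from their group means correlated at -0.02, -0.05 and 0.009, which does not settle it for single genes. With the replicate number as a block, 2807 genes were called. The number of regulators called higher was then 1 (Pdzk1ip1 had an adjusted p of 0.0524) and the number called lower 2. The block cut the SE of Hlf from 0.31 to 0.15 (adjusted p = 3.78e-05, edgeR). It also cut that of Mecom from 0.20 to 0.12 and that of Prdm16 from 0.96 to 0.49. The SE rose for Fgd5, from 0.38 to 0.44, and for Pdzk1ip1, from 0.28 to 0.29. Among the listed genes the block called, beside others, Pbx3 (lower, 0.0107), Elane (higher, 0.00907) and Prtn3 (lower, 0.0432), and ended the call of Cbx8 (0.0682). No library correlated best with its own number. CML replicates 1, 2 and 3 correlated best with WT replicates 2 (0.0855), 3 (0.0463) and 1 (0.0324). Counts were low for Prdm16, Fgd5 and Pdzk1ip1, between 8 and 131 in a library, so counting error weighs more for them. For Prdm16 the spread among CML libraries went beyond counting error, with Poisson intervals of 3.45 to 15.8 and 109.5 to 155.4 counts in CML replicates 2 and 3.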

Other observations

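Markers of multipotent progenitors, the cells just below the stem cell, did not move one way. Of 6 genes, 5 were tested, 1 rose and 1 fell. Cd48, a SLAM family gene that long-term stem cells lack, fell from 335 ± 45.9 CPM in WT to 83.5 ± 27.5 CPM in CML (log2 fold change -2.003, SE 0.25, adjusted p = 0.00111, edgeR). Cd27 rose from 18.3 ± 3.22 to 30.9 ± 2.82 CPM (0.75, SE 0.15, adjusted p = 0.00478). Both calls held in every alternative fit, and for both the groups did not overlap. Cd34 was abundant at 858 ± 74.5 CPM in CML against 875 ± 22.5 in WT (-0.03, SE 0.12). Of 10 neutrophil genes 7 were tested and 0 passed with edgeR, 0 with DESeq2 and 1 at an unadjusted p under 0.05 (Ltf, log2 fold change -1.41, adjusted p = 0.0593). Ltf passed with no low-count filter (0.0439), and Ctsg was higher without WT replicate 3 (0.0155). With the replicate number as a block, 1 neutrophil gene was higher and 1 lower. Their sum was 156 to 259 CPM in CML and 128 to 252 CPM in WT, with Mpo the most abundant (91.3 and 73.2 CPM).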
